A study of Mus musculus with 9 samples.

Results

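The 39 genes described here encode factors that build ribosomes in the nucleolus. They were taken by symbol from the 21870 genes of the mRNA table, where each of the 39 had exactly 1 row. The rule names genes and uses no measured value, but it was drawn up with earlier results of these data known. By role they comprise 3 subunits of RNA polymerase I, 4 core proteins of small nucleolar ribonucleoproteins (snoRNPs), 5 nucleolar chaperones and scaffold proteins, 13 factors of the small (40S) subunit and 14 factors of the large (60S) subunit. Their RNA was measured in livers of wild-type C57 BL6 mice, 8 weeks old and of 20 g on average, in 3 groups of 3 libraries. Controls were given saline. Mice of the APAP group were injected into the peritoneum with 500 mg/kg of acetaminophen (APAP), a painkiller that injures the liver in overdose. In the dmPGE2+APAP group the same injection followed 1 h after 300 μg/kg of dmPGE2, a long-lived form of the lipid signal prostaglandin E2, also given into the peritoneum. Livers were collected 6 h after APAP. All groups are wild-type and carry no engineered allele, and each library is bulk liver, in which more cells of a type and more RNA per cell cannot be told apart.

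Ribosome production starts when RNA polymerase I copies the ribosomal DNA into a long precursor. Small nucleolar RNAs (snoRNAs), held in snoRNPs, guide chemical modification of that precursor, while the small subunit processome folds and cuts it. The precursors of the 40S and 60S subunits then mature separately, with GTPases, helicases and nucleases acting in turn, before export to the cytoplasm. The pathway is among the costliest of the cell, is induced by Myc, and in liver is known for its rise during regeneration.

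All 39 genes passed the filter for testing (at least 0.5 FPKM, a level corrected for gene length and library size, in at least 3 libraries). Most were expressed at a modest level. The median of their mean levels over the 9 libraries was 5.19 FPKM, against 5.35 for the 11557 genes tested. Only 5 members reached 10 FPKM and 16 lay under 5. The most abundant was Npm1, which encodes the nucleolar chaperone nucleophosmin, followed by Ncl (nucleolin), Gnl2, Mybbp1a and Gnl3. The highest member of each other role was Polr1c among the polymerase subunits, Fbl among the snoRNP proteins and Wdr43 among the 40S factors. Replicates differed little. The median SD on the log2 scale was 0.156 in controls, 0.124 in APAP and 0.118 in dmPGE2+APAP for the members, against 0.174, 0.165 and 0.138 for all tested genes.

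The libraries showed the expression of liver: 10 hepatocyte markers summed to between 35800 and 48450 FPKM in every library. Treated and control libraries were apart on the first principal component of all tested genes (51.2% of the variance). Control replicate 3 stood away from its group on the next component, at −32.43 where controls 1 and 2 were at 15.42 and 16.08 (12.6%). Among controls it held the highest value of Nop58, Nop56, Gnl3 and Utp14a. For APAP against control, its removal is named where it changed a call or moved a called value by over 1.5 times. Sequencing depth is not known, so no counting error is attached to an FPKM value.

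Setting APAP against control shows which of these genes differed 6 h after the overdose. In APAP livers 12 of the 39 genes were higher and none was lower (limma, adjusted p under 0.05). Log2 differences here are of rescaled log2(FPKM + 0.1), and p-values are adjusted over all 11557 genes. That is 30.8% of the members higher, beside 11.3% of all tested genes called higher and 9.4% called lower (20.7% called in all). The rises were small, from 1.31-fold for Utp15 to 1.84-fold for Nle1. They fell in 3 of the 5 roles: 6 of 14 60S factors, 4 of 13 40S factors and 2 of 5 chaperones and scaffold proteins. None of the 3 polymerase subunits and none of the 4 snoRNP proteins passed. At an unadjusted p under 0.05 there were 18 of 39 members, beside 35.5% of all tested genes.

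Over all 39 genes the median log2 difference was 0.14, with 29 above 0 and 10 below, beside −0.02 for all tested genes. Where this median lies relative to 0 depends on how the libraries are put on a common scale. With the deposited FPKM used as they are, the median was 0.02. With a scale factor from the mRNA and non-coding tables together it was −0.03, a change of sign. Such scaling moves all genes nearly alike, and the rescaling used here moved them by 0.12 in the median. With the joint factor and non-coding isoforms of each gene added to its mRNA, the median was 0.068 for the members. For all genes tested in that fit it was −0.171. The calls changed as well, from 12 higher and 0 lower to 8 higher and 2 lower without rescaling, and to 7 higher and 2 lower with the joint factor. With that factor Utp14a, Utp15, Rrs1, Gnl3 and Gnl2 missed the threshold (log2 0.31, 0.23, 0.25, 0.39 and 0.31, adjusted p 0.176, 0.139, 0.141, 0.0759 and 0.081), while Npm1 and Tsr1 passed at 0.33 each. The same choice shifted the whole table, since 54.6% of the 2393 called genes were higher in the fit used here, 31.6% of 3081 without rescaling and 27.7% of 3128 with the joint factor. In the fit with non-coding isoforms added, 7 members were higher and 2 lower, beside 7.34% and 15.8% of 11778 genes.

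**Figure D1:**
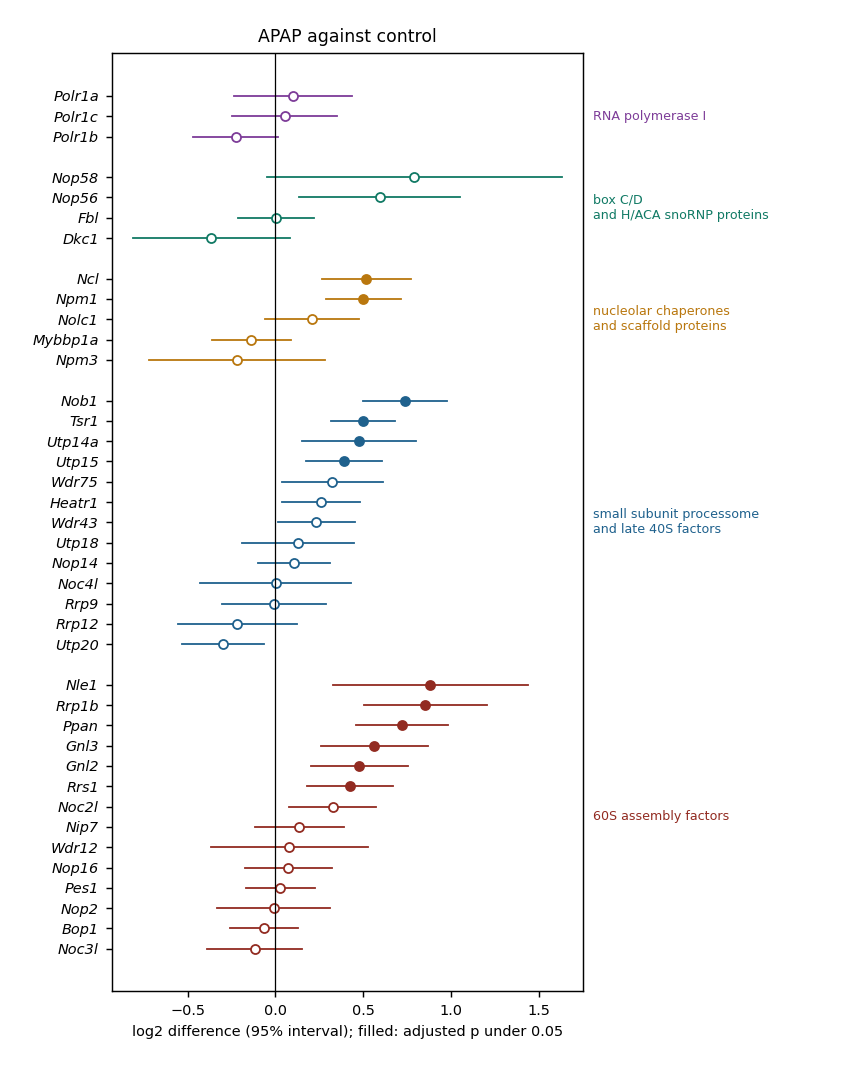
Log2 difference of APAP from control for each of the 39 genes, grouped by role. Points are limma estimates on rescaled log2(FPKM + 0.1), bars are 95% intervals, and filled points are the 12 genes with an adjusted p under 0.05. Filled points occur among the chaperones, the 40S factors and the 60S factors, all to the right of 0.

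Nob1 and Tsr1, which act late in 40S maturation, both rose. Nob1, the endonuclease that makes the last cut in the precursor of 18S ribosomal RNA (GRCm38 chromosome 8, from 107412486 to 107425051), was at 2.65, 2.45 and 2.74 FPKM in the controls and at 4.28, 3.595 and 4.37 in the APAP livers. Every APAP library lay above every control. The rise was 1.67-fold (log2 0.74, 95% interval 0.50 to 0.98, adjusted p = 0.00193), the smallest p of the 39. Livers given dmPGE2 first were at 3.07, 3.45 and 3.68 FPKM, also above every control.

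Tsr1, a GTPase-like factor that keeps the maturing 40S particle from binding its partners too early (chromosome 11, from 74898071 to 74909342), was steady within groups. It stood at 4.802, 4.72 and 5.096 FPKM in controls, 6.64, 6.08 and 6.399 in APAP and 4.82, 4.72 and 4.86 in dmPGE2+APAP. APAP livers were 1.41-fold above control (log2 0.50, 95% interval 0.32 to 0.68, adjusted p = 0.00358). The dmPGE2+APAP libraries overlapped the controls and all lay below the APAP libraries.

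2 factors of the small subunit processome, the large particle that makes the first cuts, also rose. Utp15 (chromosome 13, from 98246845 to 98263041), part of the subcomplex that joins the precursor first, went from 3.19, 3.23 and 3.27 FPKM to 3.83, 3.83 and 4.14 (log2 0.39, 95% interval 0.18 to 0.61, adjusted p = 0.0198). Utp14a, which stimulates a helicase of the processome (chromosome X, from 48256862 to 48282453), read 4.35, 3.69 and 5.91 FPKM in controls and 6.499, 5.52 and 5.66 in APAP (log2 0.48, 95% interval 0.15 to 0.80, adjusted p = 0.0443). Its groups overlap, because control replicate 3 exceeded 2 of the APAP libraries. Of these calls Utp14a is the least secure: it passed in 4 of 17 other settings, and leaving out any 1 of control 1, control 2 or the 3 APAP libraries ended the call (adjusted p 0.0782 to 0.132). Utp15 lost its call without control 2, control 3 or APAP 3 (0.0504 to 0.068) and without rescaling (0.0598).

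The other 9 factors of the 40S group did not pass. Partners of Utp15 in the same subcomplex had estimates on either side of 0. Among the 39 genes these were Wdr75 0.33, Heatr1 0.26 and Wdr43 0.23 on the log2 scale, with adjusted p of 0.101, 0.091 and 0.117. Outside them, Utp4 was at −0.07 and Nol11 at −0.27 (adjusted p 0.776 and 0.0681). Wdr43, the most abundant of the group, had 8.76, 8.33 and 8.696 FPKM in controls and 9.93, 8.28 and 9.801 in APAP, with overlap. Utp18, Nop14, Noc4l and Rrp9, a protein of the U3 snoRNP, had estimates between −0.01 and 0.13. At the other end stood Rrp12, an export factor of the 40S particle (−0.22), and Utp20, a very large scaffold protein (−0.30). Utp20 went from 5.13, 5.36 and 4.98 FPKM to 3.59, 3.83 and 4.07, with every APAP library below every control, and missed the threshold (adjusted p = 0.0709). It passed as lower in 4 of 17 other settings. These include no rescaling (log2 −0.42, adjusted p = 0.0138) and the fit without control 3 (−0.38, 0.046). They also include the joint scale factor with non-coding isoforms of the gene added to its mRNA (−0.45, 0.0366).

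Among the 60S factors, 3 calls involved proteins of early and middle assembly in the nucleolus. Ppan, which acts in cutting the precursor of the 28S and 5.8S ribosomal RNAs (chromosome 9, from 20888175 to 20892178), had 4.02, 3.54 and 4.92 FPKM in controls and 6.83, 5.57 and 6.59 in APAP. The groups do not overlap, and the difference was 1.65-fold (log2 0.72, 95% interval 0.46 to 0.98, adjusted p = 0.00336). Livers given dmPGE2 first read 4.54, 4.65 and 4.59 FPKM, within the range of the controls and below each APAP library. Rrp1b, a nucleolar protein of 60S assembly (chromosome 17, from 32036100 to 32063648), had a low level and a larger rise: 1.28, 1.03 and 1.38 FPKM in controls, 2.42, 1.76 and 2.198 in APAP and 1.89, 1.84 and 2.26 in dmPGE2+APAP. Its log2 difference was 0.85, 95% interval 0.50 to 1.21 (adjusted p = 0.00586), and all 6 treated libraries lay above the controls. Rrs1, which helps to load the 5S ribosomal RNA particle (chromosome 1, from 9545408 to 9547455), read 7.55, 6.37 and 6.37 FPKM in controls and 7.79, 8.74 and 8.53 in APAP (log2 0.43, 95% interval 0.18 to 0.67, adjusted p = 0.0237). The gap for Rrs1 was narrow, with control 1 just under the lowest APAP library.

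2 related GTPases of 60S assembly rose as well. Gnl2 (chromosome 4, from 125016585 to 125055380), which acts before the particle leaves the nucleus, was at 13.1, 12.2 and 10.5 FPKM in controls, 16.6, 13.6 and 15.7 in APAP and 15.1, 13.9 and 14.4 in dmPGE2+APAP. Both treated groups lay wholly above the controls (APAP log2 0.48, 95% interval 0.21 to 0.75, adjusted p = 0.0234). Gnl3, known as nucleostemin for its abundance in stem cells (chromosome 14, from 31012433 to 31019152), read 8.06, 8.21 and 11.3 FPKM in controls and 14.1, 10.9 and 12.4 in APAP (log2 0.56, 95% interval 0.26 to 0.87, adjusted p = 0.0184). Control 3 reached into the APAP range of Gnl3, while the other controls were well below it. Nle1, which recruits the large ATPase that strips factors from the 60S particle (chromosome 11, from 82900768 to 82908411), had the largest estimate of the 39 and a wide interval. Its levels were 1.59, 1.37 and 0.782 FPKM in controls and 2.28, 1.78 and 2.33 in APAP (log2 0.88, 95% interval 0.33 to 1.44, adjusted p = 0.034). The spread among controls of Nle1 came from replicate 3, the lowest. Without that library its log2 difference was 0.56 (adjusted p = 0.0478), below that of Rrp1b (0.89), and without control 1 it was 1.08.

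Several of these calls rest on particular libraries. Rrs1 was lost without control 2, control 3, APAP 2 or APAP 3 (adjusted p 0.0698 to 0.074) and without rescaling (0.0517). Gnl2 was lost without control 2, control 3, APAP 1 or APAP 3 (0.0502 to 0.0794). For Gnl3 the libraries were control 1, control 2, APAP 1 and APAP 3 (0.0509 to 0.0633), and without rescaling its p was 0.0605. Nle1 missed the threshold without control 2, APAP 1 or APAP 3 (0.0527 to 0.109). Ppan and Rrp1b passed in all 17 alternatives.

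Another 8 factors of the 60S group did not pass, with estimates from −0.12 for Noc3l to 0.33 for Noc2l. They include all 3 proteins of the PeBoW complex, which acts on the 60S precursor as a unit: Pes1 (0.03), Bop1 (−0.07) and Wdr12 (0.08), with adjusted p from 0.631 to 0.84. Bop1 on the deposited scale had 7.95, 8.48 and 9.44 FPKM in controls and 7.39, 7.63 and 7.64 in APAP, lower in every APAP library, whereas its rescaled log2 difference was −0.07, 95% interval −0.26 to 0.13. Nop2, an RNA methyltransferase, Nop16 and Nip7 had estimates of −0.01, 0.07 and 0.14.

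Npm1 and Ncl were the most abundant genes to rise. Npm1 (chromosome 11, from 33152287 to 33163206) went from 32.7, 29.9 and 33.1 FPKM in controls to 37.9, 39.4 and 47.7 in APAP and stood at 39.9, 38.7 and 38.3 in dmPGE2+APAP. No treated library reached down to the controls. The APAP difference was 1.42-fold (log2 0.50, 95% interval 0.29 to 0.72, adjusted p = 0.00676). Npm1 is known for processed copies elsewhere in the genome, although GENCODE M21 names no pseudogene after it, so its level is uncertain if reads were divided among such copies. Ncl, whose product binds the ribosomal RNA precursor (chromosome 1, from 86344719 to 86359400), was at 14.9, 13.4 and 14.6 FPKM in controls, 19.6, 15.6 and 21.9 in APAP and 19.01, 18.96 and 17.98 in dmPGE2+APAP (APAP log2 0.52, 95% interval 0.27 to 0.77, adjusted p = 0.0119). APAP replicate 2 was the lowest treated library for Ncl and still lay above every control. Both genes passed in all 17 alternatives.

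The other members of that role did not pass. Nolc1, a scaffold that carries snoRNPs, had an estimate of 0.21. Mybbp1a, a nucleolar regulator that binds Myb and p53, read 14.1, 12.8 and 12.1 FPKM in controls and 10.01, 10.7 and 11.9 in APAP, lower in each APAP library. After rescaling its log2 difference was −0.14, 95% interval −0.36 to 0.09 (adjusted p = 0.37). With the joint scale factor it was at −0.31 (adjusted p = 0.0525), and with that factor and the non-coding isoforms of the gene added to its mRNA it passed as lower (−0.44, adjusted p = 0.0359). Npm3, a small relative of Npm1, had 9.59, 8.14 and 9.04 FPKM in controls and 7.48, 6.85 and 6.76 in APAP (log2 −0.22, 95% interval −0.72 to 0.28). GENCODE M21 names 1 pseudogene after Npm3, so its levels in every group carry the same uncertainty.

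**Figure D2:**
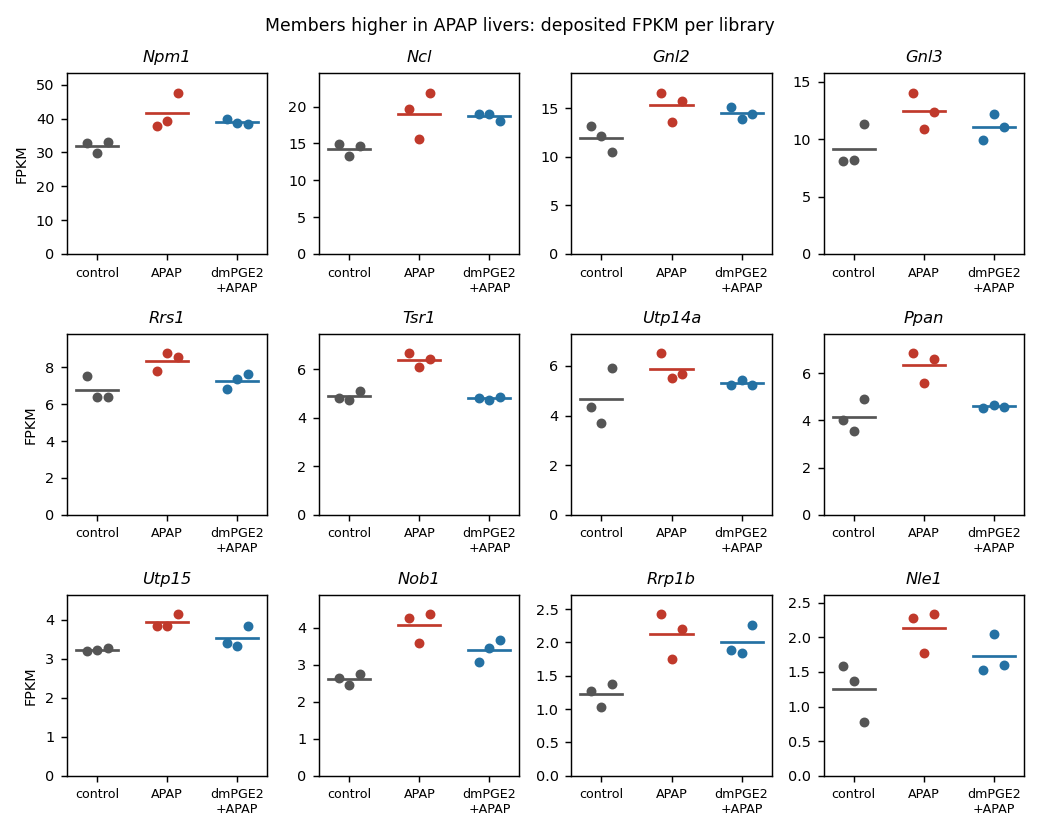
Deposited FPKM (vertical axis, from 0) of the 12 genes called higher in APAP livers, with 1 point per library and a line at each group mean. All 3 APAP libraries lie above all 3 controls for 10 of the 12, and control replicate 3 overlaps the APAP range for Gnl3 and Utp14a.

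RNA polymerase I itself showed no call. Polr1a, the largest subunit, read 4.96, 4.62 and 4.88 FPKM in controls and 3.94, 5.15 and 5.27 in APAP (log2 0.10, 95% interval −0.24 to 0.43). Polr1b, the other large subunit, read 6.48, 6.18 and 5.56 and 4.85, 4.92 and 4.49 (log2 −0.23, 95% interval −0.47 to 0.02, adjusted p = 0.168). Polr1c, shared with RNA polymerase III, read 7.98, 7.28 and 10.2 and 9.17, 7.83 and 7.19 (log2 0.05, 95% interval −0.25 to 0.35). Polr1b was below the controls in every APAP library on the deposited scale, and it passed as lower without rescaling (−0.35, adjusted p = 0.0243), with the joint scale factor (−0.40, 0.0382) and without control 3 (−0.34, 0.0495).

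Of the snoRNP proteins none passed. Fbl (fibrillarin), the methyltransferase of box C/D snoRNPs, read 8.899, 9.87 and 9.87 FPKM in controls and 9.203, 8.36 and 8.82 in APAP, a log2 difference of 0.00, 95% interval −0.21 to 0.22. Nop58, a core protein of the same particle, read 2.498, 2.52 and 7.53 in controls and 5.28, 4.99 and 7.59 in APAP. Control 3 alone held the value of an APAP library, and the interval is wide (log2 0.79, 95% interval −0.05 to 1.63, adjusted p = 0.162). Without control 3 the estimate was 1.26 (adjusted p = 0.00604). Nop56, its partner, read 6.58, 5.55 and 8.77 and 6.97, 9.95 and 12.5 (log2 0.59, 95% interval 0.14 to 1.05, adjusted p = 0.0679), and it passed without control 3 (0.72, 0.0422) or without APAP 1 (0.82, 0.0179). Dkc1 (dyskerin), the pseudouridine synthase of H/ACA snoRNPs, had the lowest estimate of all 39, −0.36, 95% interval −0.81 to 0.08 (adjusted p = 0.221), from 6.32, 5.19 and 7.32 FPKM in controls to 3.89, 3.81 and 5.795 in APAP. Leaving out 1 library gave −0.56 (without APAP 3) to −0.28 (without APAP 1), with no call.

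On the deposited FPKM, before any rescaling, 12 members had all 3 APAP libraries above all 3 controls and 6 had them all below. Over the tested genes these shares were 12.9% and 30.6%. The 6 below were Polr1b, Mybbp1a, Npm3, Bop1, Noc3l and Utp20. By library, the median member stood at 0.23, 0.12 and 0.20 above the control mean in the APAP livers (log2, rescaled), and at 0.05, −0.06 and −0.004 in the controls. Without control 3, 11 members were called higher and 2 lower. Without control 2 or without APAP 3, 6 and 7 members were called, all higher.

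Calls among other genes of the pathway varied by list, and no difference between lists was tested. The 5 lists were further polymerase I factors, snoRNP assembly, 40S factors, 60S factors, and the exosome with rRNA decay. Of 126 other genes tested from them, 8 were higher and 2 lower in APAP, which is 6.35% and 1.59%. The median log2 difference of the 126 was 0.002. Among 13 tested polymerase I factors 3 rose (23.1%): Taf1d, a subunit of its promoter selectivity factor (2.92, 2.64 and 3.34 FPKM in controls, 6.52, 5.85 and 8.65 in APAP, log2 1.32, adjusted p = 0.0044), the subunit Polr1d (log2 0.58) and the helicase Ddx21 (0.38). Of 43 further 60S factors 3 rose and 1 fell. Mak16 rose with a log2 difference of 0.55, Spata5 with 0.39 and Ddx24 with 0.28. Of 43 further 40S factors, Ngdn rose (0.38) and Utp6 fell (−0.35). The list of the exosome, a nuclease that trims ribosomal RNA precursors, also holds other genes of rRNA decay. Of its 15 genes 1 rose (Mphosph6, 0.54), and 0 of 12 snoRNP assembly factors passed.

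Cytosolic ribosomal proteins, the parts these factors assemble, gave 5 higher and 1 lower of 79 tested, with a median of 0.11. The Myc network, whose transcription factors bind the E-box CACGTG, gave 3 higher of 9 tested. Myc, which activates genes of ribosome production, was at 0.949, 1.97 and 0.671 FPKM in controls, 7.15, 5.27 and 8.15 in APAP and 5.95, 4.27 and 4.98 in dmPGE2+APAP. Its APAP difference was 6.23-fold (log2 2.64, adjusted p = 0.00114), beside at most 0.88 among the 39 genes. Mxd1 and Mnt, which compete with Myc for their shared partner Max, rose with log2 differences of 0.84 and 0.80.

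**Figure D3:**
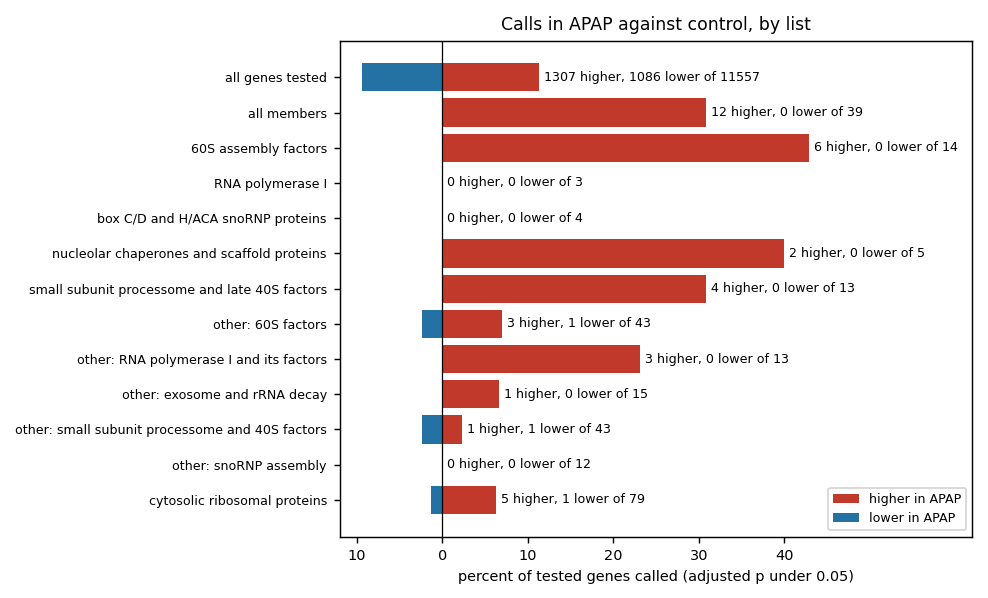
Percent of tested genes called in APAP against control (adjusted p under 0.05), higher to the right and lower to the left of 0, for all tested genes, the 39 members, their 5 roles, 5 lists of other pathway genes and the cytosolic ribosomal proteins. The 60S factors among the members (6 of 14) exceed the share of all genes (11.3% higher), while the other 60S factors (3 of 43) lie below it.

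Markers of some other cells moved in the same comparison, not all of them upward. Of 8 neutrophil markers 5 were tested and 4 rose, and their summed level was 2.45 to 6.79 FPKM in controls, 10.1 to 42.3 in APAP and 5.36 to 11.6 in dmPGE2+APAP. Erythroid and platelet markers rose in 5 of 7 cases, from sums of 252.8 to 328.8 FPKM in controls to 340.1 to 787.7 in APAP, with 250.8 to 268.2 in dmPGE2+APAP. Of 10 markers of dividing cells 4 were tested and 2 rose, with sums of 16.02 to 19.3 FPKM in controls, 21.7 to 22.96 in APAP and 19.7 to 21.7 in dmPGE2+APAP. A single marker reached 16.65 FPKM in 1 library, so the sum there rests mostly on 1 gene. Sinusoidal endothelium gave 1 higher and 1 lower of 6, and Kupffer cells 1 higher of 8, with 6 estimates below 0. Only 1 of 8 lymphocyte markers was tested, without a call. Lymphocyte sums were 2.03 to 2.71 FPKM in controls, 0.764 to 1.11 in APAP and 0.797 to 1.59 in dmPGE2+APAP. Stellate cells gave 1 higher of 7, cholangiocytes 1 higher of 4 tested, and monocytes 0 calls of 1 tested. No marker of these lists was at 0 in all libraries. Hepatocyte markers gave 0 calls of 10, with sums of 35800 to 38540 FPKM in controls, 41100 to 48450 in APAP and 43950 to 47550 in dmPGE2+APAP. The part of these cells in the levels of the 39 genes was not tested.

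Promoter sequence was available for 33 of the 39 genes in windows of 300 bases, from 250 before to 50 after the gene start (RefSeq, GRCm38.p6). Rrp12, Bop1, Npm1, Rrs1, Fbl and Gnl2 were the others. The E-box CACGTG, which reads the same on both strands, occurred in 8 of 33 (24.2%), beside 8.09% of the 27025 genes with such a window and 11.9% of those tested here. The 8 are Mybbp1a, Nle1, Nop2, Pes1, Tsr1, Utp18, Utp20 and Wdr43. Among the 9 members with a window that rose in APAP, 2 held a match. Below, E-boxes are in capitals and sequences run 5′ to 3′ on the strand of the gene. They are shown because the genes that share the motif had differences of either sign: Nle1 and Tsr1 rose, Wdr43 and Utp18 had estimates above 0 without passing, and Mybbp1a and Utp20 had estimates below 0. For Nle1 and Tsr1 the window is given to base 30 after the start, and for the other 4 up to 12 bases stand on each side of the motif.
Nle1, chr11:82908366-82908645, minus strand: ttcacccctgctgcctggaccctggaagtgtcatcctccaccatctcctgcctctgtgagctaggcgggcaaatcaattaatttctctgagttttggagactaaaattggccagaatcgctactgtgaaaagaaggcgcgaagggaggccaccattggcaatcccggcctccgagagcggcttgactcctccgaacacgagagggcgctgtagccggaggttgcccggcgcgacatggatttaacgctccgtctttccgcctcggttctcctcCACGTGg
Tsr1, chr11:74897830-74898109, plus strand: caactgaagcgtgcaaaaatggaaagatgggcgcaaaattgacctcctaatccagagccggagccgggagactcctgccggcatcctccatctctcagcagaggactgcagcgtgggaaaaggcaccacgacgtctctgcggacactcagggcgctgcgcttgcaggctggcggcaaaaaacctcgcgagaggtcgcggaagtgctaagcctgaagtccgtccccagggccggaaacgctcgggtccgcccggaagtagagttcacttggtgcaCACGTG
Wdr43, chr17:71616220-71616249, plus strand: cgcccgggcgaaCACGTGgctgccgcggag
Utp18, chr11:93885769-93885798, minus strand: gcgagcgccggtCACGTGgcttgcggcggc
Mybbp1a, chr11:72441355-72441376, plus strand: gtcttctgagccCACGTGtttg
Utp20, chr10:88826765-88826789, minus strand: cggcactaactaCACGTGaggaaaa

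The matches lay close to the start: in these 6 genes the first base of the motif stood at 24, 25, 18, −20, 41 and 38, in the order printed, counted from the first transcribed base as 1. Pes1 had it at 3 and Nop2 at −60. The cAMP response element TGACGTCA, also a palindrome, occurred in 2 of 33 (6.06%), beside 2.03% of all genes with a window and 3.49% of those tested. These were Ppan, at −35, which rose, and Noc4l, at −32, whose log2 difference was 0.00. The AP-1 site TGAGTCA, searched on both strands, occurred in none of 33, beside 5.95% and 4.73%. The palindromic NRF1 site also occurred in none, beside 1.07% and 2.39%. Such a match is only a run of letters, and binding was not measured.

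Some of these genes carry snoRNAs in their introns, so that 1 transcript yields a protein and a guide RNA of the same pathway. In the GENCODE M21 annotation 8 of the 39 (20.5%) hold 23 snoRNA genes on their strand, beside 218 of 11537 tested genes (1.89%). They are Nop56 with 5, Nop58 with 4, Ncl, Wdr43 and Gnl3 with 3 each, Tsr1 and Ppan with 2 each and Dkc1 with 1. Of the 8 hosts 4 rose in APAP: Ncl, Gnl3, Tsr1 and Ppan. Beside this stand 30.8% of the 39 members and 11.3% of all tested genes called higher. Calls among the other tested hosts were not counted, and a link between hosting and the rise was not tested. A snoRNA inside Ncl and another inside Gnl3 are shown as examples of what these introns hold, in the DNA letters of GENCODE (GRCm38), with the C box TGATGA near the 5′ end and the D box CTGA near the 3′ end in capitals.
Snord82 in Ncl, chr1:86356261-86356330, minus strand: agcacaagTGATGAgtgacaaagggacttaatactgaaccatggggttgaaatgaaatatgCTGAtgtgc
Snord69 in Gnl3, chr14:31014287-31014366, minus strand: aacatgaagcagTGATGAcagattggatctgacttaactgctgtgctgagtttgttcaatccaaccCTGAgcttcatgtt

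These are box C/D snoRNAs, the class bound by fibrillarin, Nop56 and Nop58. Levels of the snoRNAs were not analysed here.

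Non-coding isoforms of the members were quantified in the lncRNA table. It lists 145 such transcripts of 34 members, 112 of them annotated as retained introns and 29 as processed transcripts. Of the rest, 1 is annotated as protein coding and 3 were not matched to the annotation. The isoforms took a median of 15.4% of a gene's summed FPKM, up to 42.9% in Wdr75. Of the 124 tested, 5 were higher and 1 lower in APAP than in control, beside 2.62% and 0.962% of the 22984 transcripts tested (3.59% called in all). Their median log2 difference was 0.50, with 99 of 124 above 0, beside 0.09 over all tested transcripts. All transcripts were fitted with the joint scale factor, unlike the mRNA of the members in the main fit. The 5 higher were Gnl3-214, Gnl3-211, Nle1-204, Nop58-208 and Nop58-213, all retained introns.

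The 1 lower isoform moved against its own gene. Gnl3-206 (chromosome 14, from 31016666 to 31019044, minus strand) was at 1.19, 0.921 and 1.24 FPKM in controls, 0.231, 0.117 and 0.127 in APAP and 0.0986, 0.135 and 0.148 in dmPGE2+APAP. The highest treated library was thus far below the lowest control. The fall in APAP was to 0.206 of control (log2 −2.28, adjusted p = 0.00491), and in dmPGE2+APAP the log2 difference from the same controls was −2.39 (adjusted p = 0.0055). The call held without each library in turn. Gnl3 mRNA rose in the same APAP livers in the main fit. With the joint scale factor used for isoforms, its estimate was 0.39 and missed the threshold (limma, adjusted p = 0.0759). Another 2 retained-intron isoforms of the gene rose. Gnl3-214 went from 0.472, 0.855 and 0.596 FPKM to 2, 1.31 and 2.06 (log2 1.31, adjusted p = 0.0352) and Gnl3-211 from 0.265, 0.336 and 0.594 to 1.24, 1.24 and 1.05 (1.36, 0.0442). The 5 rises are less secure than the fall: without any 1 library at most 1 of them passed.

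The other comparisons gave 1 call. None of the 124 isoforms passed in dmPGE2+APAP against APAP, and neither did any of the 22984 transcripts (limma). At an unadjusted p under 0.05 there were 6 of 124, beside 6.45% of all transcripts, and the members' median was −0.18 beside −0.02. Against control, Gnl3-206 was the 1 isoform called in dmPGE2+APAP, beside 0.535% of transcripts called lower and 1.78% called in all, and the median over the 124 was 0.37 beside 0.08.

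Gnl3-206 differs from the coding transcript at its 3′ end. Its 5 exons end inside the gene: the last contains exon 5 of the coding transcript Gnl3-201, which has 15 exons, and runs on for 161 bases into the intron. Gnl3-214 and Gnl3-211 also span this region, and whether they hold the same intron was not checked. That last exon (GENCODE M21, GRCm38) is shown because its intron stretch is not in exon 5 of Gnl3-201. The 81 bases of exon 5 are in capitals and the intron is in lower case.
Gnl3-206, chr14:31016666-31016907, minus strand: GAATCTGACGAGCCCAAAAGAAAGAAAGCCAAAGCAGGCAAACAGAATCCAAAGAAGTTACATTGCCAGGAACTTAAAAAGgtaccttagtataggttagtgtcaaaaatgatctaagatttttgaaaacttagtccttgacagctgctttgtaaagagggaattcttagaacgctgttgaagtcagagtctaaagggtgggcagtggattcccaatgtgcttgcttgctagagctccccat

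The capitals belong to the mRNA as well, and the first 4 exons were not compared. The level of Gnl3-206 thus rests on how the authors' quantification divided shared reads, which the sources used here do not give. Gnl3 also overlaps exons of Pbrm1 on the opposite strand. Such an overlap is annotated for 19 of the 39 members and for 6 of the 12 that rose (Gnl2, Gnl3, Nle1, Rrp1b, Tsr1 and Utp14a), and whether counting used the strand is not given, so these levels are uncertain to that extent.

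**Figure D4:**
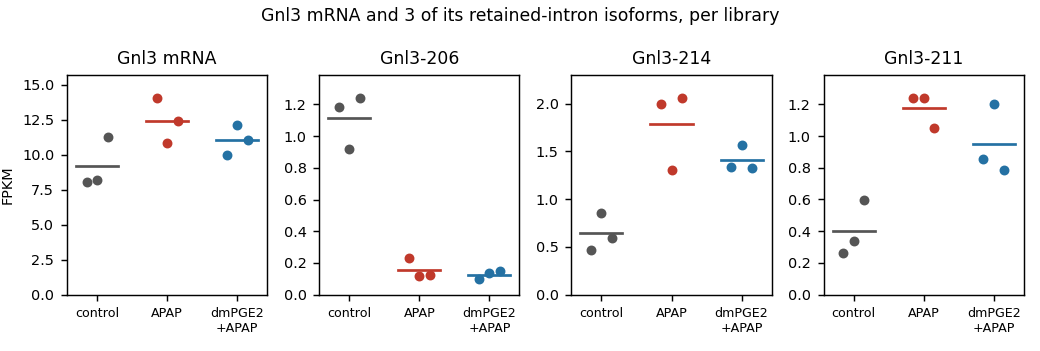
FPKM per library (vertical axes, from 0, with different ranges) of Gnl3 mRNA and 3 of its retained-intron isoforms, with lines at group means. Gnl3-206 lies at 0.921 FPKM or more in the controls and at 0.231 or less in all 6 treated libraries, whereas Gnl3-214 and Gnl3-211 are higher in the APAP libraries than in the controls.

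The comparison of dmPGE2+APAP with APAP asks whether the pretreatment changed the response. No member passed, and neither did any of the 11557 genes (percent called 0, limma with and without an abundance trend). At an unadjusted p under 0.05 there were 4 of 39 members, beside 1082 genes (9.36%). The median log2 difference of the members was −0.06, with 32 below 0 and 7 above, beside 0.03 over all genes with 5173 below and 6384 above. With the joint scale factor the members' median was 0.001, with 19 below 0 and 20 above. That factor moves all genes nearly alike. With non-coding isoforms added to the mRNA as well, the median was −0.03 for the members and 0.079 for all genes tested. On the deposited scale 5 members had all 3 dmPGE2+APAP libraries below all 3 APAP libraries (8.93% of all genes did), and 1 had them above (7.11%).

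The 5 below were Ppan, Tsr1, Heatr1, Utp14a and Rrs1. For Ppan the log2 difference was −0.42, 95% interval −0.68 to −0.16 (adjusted p = 0.353), and for Tsr1 it was −0.37, 95% interval −0.55 to −0.19 (adjusted p = 0.301). Heatr1 was at 5.54, 5.46 and 6.07 FPKM in APAP and 4.58, 3.89 and 4.16 in dmPGE2+APAP, also under its controls at 5.202, 4.91 and 5.33 (log2 against APAP −0.40, 95% interval −0.62 to −0.17, adjusted p = 0.324). These intervals lie below 0 for a single gene, but none passed once adjusted over all genes.

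Npm3 stood alone above. It read 8.14, 16.7 and 15.02 FPKM in dmPGE2+APAP, against 7.48, 6.85 and 6.76 in APAP and 9.59, 8.14 and 9.04 in controls. Replicates 2 and 3 of dmPGE2+APAP were above every other library, while replicate 1 stood at the level of the lowest control. The log2 difference from APAP was 0.88, 95% interval 0.38 to 1.38 (adjusted p = 0.324). Without that replicate 1 it was 1.18 with an adjusted p of 0.00832, and 42 genes in all passed, whereas leaving out any other library gave no call for Npm3.

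All 12 genes that rose in APAP had a lower mean FPKM in dmPGE2+APAP than in APAP on the deposited scale. They were chosen for high values in the same APAP libraries, so this direction is no support for an effect of dmPGE2. The differences ranged from −0.42 for Ppan to 0.02 for Ncl on the rescaled log2 scale, where Ncl was slightly above 0.

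**Figure D5:**
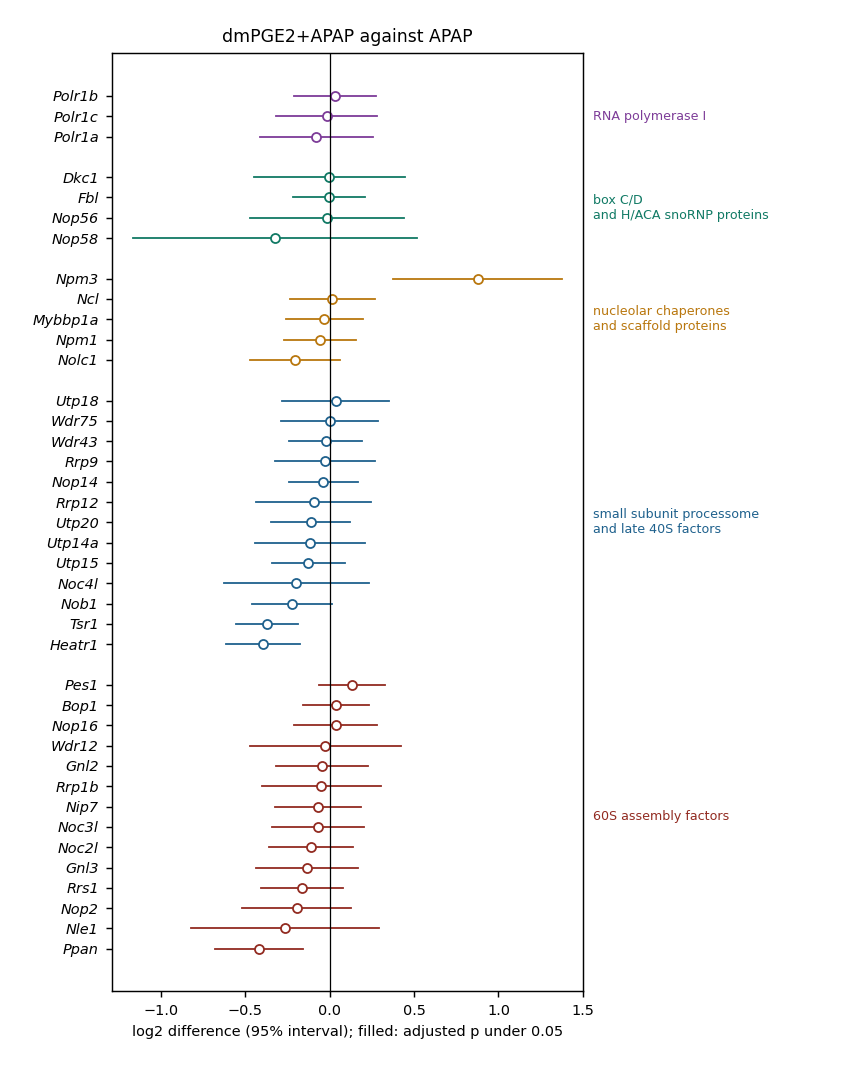
Log2 difference of dmPGE2+APAP from APAP for each of the 39 genes, by role, with 95% intervals (limma on rescaled log2(FPKM + 0.1)). No point is filled, because none had an adjusted p under 0.05, and Npm3 is the only gene whose interval lies wholly above 0.

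Against the same controls, dmPGE2+APAP livers had 5 members higher and 1 lower (12.8% and 2.56%), beside 9.15% and 7.03% of all genes (16.2% called). The higher genes were Rrp1b (log2 0.81, adjusted p = 0.00941), Ncl (0.54, 0.013), Nob1 (0.52, 0.0122), Npm1 (0.44, 0.0141) and Gnl2 (0.44, 0.0403). All 5 were also among the 12 of the APAP comparison, which shares the 3 control libraries. Utp20 was lower, at 3.74, 3.28 and 3.36 FPKM against 5.13, 5.36 and 4.98 in controls (log2 −0.41, 95% interval −0.65 to −0.18, adjusted p = 0.0276). Its call was lost without control 1, control 2, dmPGE2+APAP 2 or dmPGE2+APAP 3 (adjusted p 0.0737 to 0.101).

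Rescaling mattered more here. On deposited FPKM 1 member was higher and 3 were lower, and the median log2 difference went from 0.13 to −0.02. The rescaling had moved all genes by 0.151 in the median. With the joint factor and non-coding isoforms added to the mRNA, the median was 0.083 for the members and −0.082 for all genes. In that fit 2 members were higher and 1 lower, beside 6.04% and 8.63% of 11778 genes. On the deposited scale Ncl, Nob1 and Npm1 missed the threshold (adjusted p 0.0545, 0.0524 and 0.0694). Gnl2 passed in 5 of 17 alternatives and was lost without control 2, control 3 or any 1 dmPGE2+APAP library (0.074 to 0.118), and Npm1 was lost without control 2 (0.0523). The genes that rose in APAP and had no call here were Gnl3, Ppan, Nle1, Rrs1, Tsr1, Utp14a and Utp15, with log2 differences from control of 0.13 for Tsr1 to 0.62 for Nle1. Tsr1 without rescaling was at −0.02, on the other side of 0. Differences between the 2 comparisons are those of dmPGE2+APAP against APAP, where no gene passed.

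By role, the median over the 14 60S factors was 0.23 in APAP and 0.19 in dmPGE2+APAP against control, that of the 13 40S factors 0.23 and 0.13, and that of the 5 chaperones and scaffold proteins 0.21 and 0.44. The last rests on few genes, including Npm3. The 4 snoRNP proteins were at 0.30 and 0.24, and the 3 polymerase subunits at 0.05 and 0.02. By library, the median member lay at 0.09, 0.15 and 0.29 above the control mean in dmPGE2+APAP, so the spread between these libraries was wider than between the APAP libraries (0.12 to 0.23).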

How the data were processed

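RNA of 9 mouse livers was sequenced after removal of rRNA, with the strand marked by dUTP per the labels' protocols. The submitters' processing notes name HISAT2 and GRCm38 (mm10). The quantifier, the annotation release and the use of strand are not given in the sources used here. Deposited tables hold FPKM, per gene for mRNA and per transcript for lncRNA. The authors' further tables, deposited under the name of read counts, hold a score. Within 1%, lncRNA scores of at least 1000 equal FPKM times genomic span (kb) times a constant of 60.04 to 78.55 per library. They served this check only, and depth is unknown. Control columns have a name without a definition in the labels, and were assigned by exclusion. Nothing says how separate the samples of a group are, so p-values measure only the spread between these samples, which may be technical.

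Each library was divided by a scale factor, the trimmed mean of its log ratios to a reference library (30% trimmed on ratios and 5% on abundance). This moved log2 differences by 0.12 for APAP against control, 0.0312 for dmPGE2+APAP against APAP and 0.151 for dmPGE2+APAP against control. limma 3.58.1 in R 4.3.3 was fitted to log2(FPKM + 0.1) of all 9 libraries, with a trend on abundance and 6 residual degrees of freedom. Tests were two-sided with Benjamini-Hochberg adjustment at 0.05, over 11557 genes (at least 0.5 FPKM in 3 libraries) or 22984 lncRNA-table transcripts (at least 0.1 FPKM, factor from both tables). The fit was tested on simulated data. An exact test of 3 against 3 libraries cannot give a p under 0.1, so calls rest on the pooled spread.

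Members and lists were chosen with earlier results of these data known. By rule the text names members that passed, the most abundant of each role, up to 3 genes per other list and up to 6 promoters with an E-box. Other members and isoforms were named after their values were seen. The joint scale factor (from both tables) and the gene totals, which use that factor and also add non-coding isoforms to the mRNA, were alternatives chosen after seeing the data.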

Additional observations from a re-analysis of the deposited data

How the results depend on the processing

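Of the 12 genes higher in APAP, 6 (Ncl, Npm1, Nob1, Ppan, Rrp1b and Tsr1) passed in all 17 alternatives: other scalings, pseudocounts and filters, the 6 compared libraries alone, no abundance trend, the replicate block, each library left out, gene totals and the joint scale factor. The other 6 missed the threshold in some. Leaving out 1 library gave 6 to 13 members called and a median of 0.14 to 0.23 for APAP against control (1532 to 2296 genes), 0 to 1 members and −0.096 to −0.05 for dmPGE2+APAP against APAP (0 to 42 genes), and 3 to 9 members and 0.088 to 0.21 for dmPGE2+APAP against control (1028 to 1735 genes). For isoforms of members the ranges were 1 to 2, 0 to 0 and 1 to 1. Without rescaling the members' medians were 0.02 for APAP and −0.021 for dmPGE2+APAP against control, and Tsr1 changed sign in the latter (−0.021, adjusted p = 0.88). Upper quartile scaling gave a median of 0.073 for dmPGE2+APAP against control, with 47.8% of called genes higher in APAP. The joint factor gave medians of −0.029, 0.001 and 0.019 for APAP against control, dmPGE2+APAP against APAP and dmPGE2+APAP against control. These medians are distances from 0, and the median of all genes moves with the scale as well. Gene totals, on the joint factor, gave a median of 0.068 for APAP, beside −0.171 over all genes (2721 called, 31.8% higher). They gave 3 members called in dmPGE2+APAP. For dmPGE2+APAP against control 56.5% of called genes were higher, and 28.5% without rescaling, 45.3% with upper quartiles, 38.2% with the joint factor and 41.1% with gene totals. With only the 6 compared libraries 2 genes passed in dmPGE2+APAP against APAP. A filter of 0.5 FPKM gave 4 isoforms called in dmPGE2+APAP against control. The cause of these changes was not tested. Replicate numbers gave no sign of pairing: of 9 same-number pairs 0 had a correlation over 0.1 (−0.117 to 0.0716). Pairs with different numbers reached −0.154 and 0.149, so this check cannot settle whether libraries share a batch. The replicate block left 10 members called in APAP (2025 genes), 5 in dmPGE2+APAP against control (1490 genes) and 1 isoform in APAP. Depth is not known, so counting error at low levels could not be assessed.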
